A study of Mus musculus with 6 samples.

Results

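The 10 mast cell genes Cpa3, Cma1, Mcpt4, Tpsb2, Tpsab1, Ms4a2, Kit, Fcer1a, Hdc and Gata2 were followed in RNA-seq of peritoneal macrophages from WT and FOXO3 KO mice. They were found by symbol in a table of 54648 gene symbols, and all 10 were present and passed the filter on low counts. The WT group was 3 libraries from C57BL/6 mice with intact Foxo3, and the FOXO3 KO group was 3 libraries from C57BL/6 mice genotyped as knockouts. The study's methods describe homozygous littermates of either sex and do not describe the allele. The mice of both groups were 6 to 8 weeks old, and all had received 3% thioglycollate in the abdomen 4 days before the cells were collected. This irritant recruits blood monocytes, which turn into macrophages in the cavity. The cells were pelleted from the lavage, no sorting step is described, and each library is named here by its group and number (WT 1 to 3 and FOXO3 KO 1 to 3).

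Mast cells are long-lived tissue cells filled with granules, and the peritoneal cavity holds a resident population of the connective tissue type. Their granules store histamine and proteases bound to serglycin. Antigen that crosslinks IgE on the high-affinity IgE receptor sets off their release. Survival depends on stem cell factor acting on the receptor Kit, and GATA2 is among the transcription factors that establish and maintain the lineage. Thioglycollate-elicited cells are mostly macrophages, and peritoneal macrophages are not known for expressing the granule proteases.

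Library totals lay between 28083572 and 36424331 counts, and 15608 genes were tested. Foxo3, the targeted gene, was at 117, 107 and 72.9 CPM (counts scaled to the size of each library) in WT 1, 2 and 3, at 4.71 CPM in FOXO3 KO 1, at 4.28 CPM in FOXO3 KO 3 and at 104 CPM in the library labelled FOXO3 KO 2. That last library therefore goes against its label for the targeted gene, and the results on the members and on the lists of genes by role are given with it and without it. Xist, transcribed from the inactive X chromosome of female cells, was at 869 CPM in WT 3 and 1127 CPM in FOXO3 KO 3 and at no more than 0.177 CPM in the other 4 libraries, so each group held 1 library of that kind. The 12 macrophage markers summed to between 15158 and 19653 CPM in WT and between 16412 and 18723 CPM in FOXO3 KO. Lyz2, at 7724 to 11420 CPM, made up most of this sum, and single markers varied more, such as Cd68, at 523 CPM in WT 3 and 988 to 1471 CPM in the other libraries.

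The promoters are shown because GATA2, itself a member, binds GATA sequences. RefSeq promoter windows on GRCm38.p6, from 250 bases before to 50 after the start, were found for 8 of the 10 members. There were 10 windows in all, with 2 each for Kit and Gata2. Tpsb2 and Tpsab1 had no entry. The letters searched on both strands were AGATAA as well as AGATAG, and their forms with another first base, TGATAA as well as TGATAG. At least 1 of them lay in 6 of the 10 windows, those of all 8 members but Kit and Gata2. Among 32851 mouse promoters of the same length, 29.8% held one. The 250 bases before the start are printed for 4 of these members, on the strand of the gene, with the matches on either strand in capitals.
Cpa3 promoter, chr3:20242182-20242431, minus strand: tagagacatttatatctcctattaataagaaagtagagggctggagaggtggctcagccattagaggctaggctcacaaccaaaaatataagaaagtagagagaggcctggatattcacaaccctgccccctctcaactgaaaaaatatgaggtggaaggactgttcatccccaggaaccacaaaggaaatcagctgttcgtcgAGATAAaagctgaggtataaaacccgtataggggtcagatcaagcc
Cma1 promoter, chr14:55944676-55944925, minus strand: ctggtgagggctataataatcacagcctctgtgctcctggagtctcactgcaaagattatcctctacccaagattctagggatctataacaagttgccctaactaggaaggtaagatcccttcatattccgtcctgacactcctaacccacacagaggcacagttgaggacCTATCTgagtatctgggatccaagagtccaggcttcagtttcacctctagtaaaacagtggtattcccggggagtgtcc
Mcpt4 promoter, chr14:56062311-56062560, minus strand: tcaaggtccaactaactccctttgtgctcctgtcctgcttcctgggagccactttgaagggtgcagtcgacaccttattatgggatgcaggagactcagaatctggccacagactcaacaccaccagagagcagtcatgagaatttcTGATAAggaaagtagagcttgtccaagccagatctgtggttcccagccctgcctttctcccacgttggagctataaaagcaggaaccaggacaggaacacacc
Ms4a2 promoter, chr19:11623720-11623969, minus strand: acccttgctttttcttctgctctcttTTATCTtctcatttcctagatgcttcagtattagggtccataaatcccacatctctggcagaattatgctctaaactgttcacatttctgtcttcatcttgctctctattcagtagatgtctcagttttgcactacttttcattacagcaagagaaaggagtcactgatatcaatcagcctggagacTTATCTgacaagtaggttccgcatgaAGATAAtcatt
In Cpa3 the match began 46 bases before the start, in Cma1 79 and in Mcpt4 103, while Ms4a2 held 3 matches, which began 224, 37 and 11 bases before the start. The E-box letters CACGTG and CATGTG, read on both strands, lay in 1 of the 10 windows (that of Fcer1a), against 20.4% of all promoters. The letters TATAAA on the strand of the gene lay in 3 of the 10 windows (those of Cpa3, Mcpt4 and Fcer1a), against 8.32%. A match describes these letters only, and binding was not measured.

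The members lie at 8 places in the genome, given here on GRCm38 with the GENCODE M21 annotation. Cma1 (chr14:55941451-55944675, minus strand) and Mcpt4 (chr14:56059629-56062313, minus strand) are 115 kb apart in the chymase locus. Tpsb2 (chr17:25366305-25369098, plus strand) and Tpsab1 (chr17:25343245-25345562, minus strand) are 21 kb apart in the tryptase locus. The remaining 6 genes lie apart from each other, with Cpa3 at chr3:20215620-20242181 and Hdc at chr2:126593667-126619299. Counting could be affected where a transcript shares sequence with another gene. Of the 31-base words in the longest coding transcript, 12.2% of those of Mcpt4 were also found in other genes, mostly Cma2, 10.6% of those of Cma1 in Gm48934 and 4.91% of those of Ms4a2, mostly in Ms4a4b. For Tpsb2 the share was 0.715%, all of it in Tpsab1, and the other 6 members shared none. Gm48934 had at most 1 count and Cma2 at most 26 counts in a library, whereas Ms4a4b reached 579 to 3104 counts in WT and 452 to 935 in FOXO3 KO. At the read length, 2.42% of the 76-base words of Mcpt4 were shared, 1.6% of those of Ms4a2 and 1.58% of those of Cma1, and none of the other 7 members. How such reads were assigned was not tested.

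Per kilobase of the longest coding transcript, 4 granule proteases led. The median level over the 6 libraries was 63.7 CPM per kilobase for Cma1, 39.7 for Cpa3, 30.1 for Tpsb2 and 28.5 for Mcpt4. The IgE receptor chain Fcer1a followed at 3.85 CPM per kilobase, then Hdc at 2.94, Kit at 1.94, Ms4a2 at 1.27, Tpsab1 at 1.23 and Gata2 at 0.957. Cma1 was the first of the 10 in each of the 6 libraries, and the 4 leading proteases lay above the other 6 members in each of them. Over libraries, the range of every gene in this order overlapped that of its neighbours, such as 34.5 to 189 CPM per kilobase for Cma1 and 20.9 to 152 for Cpa3.

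Cpa3 encodes carboxypeptidase A3, which is stored in the granule beside the chymases and tryptases. Its level was 56.1, 34.8 and 220 CPM in WT 1, 2 and 3, against 59.0, 30.3 and 90.8 CPM in FOXO3 KO 1, 2 and 3. WT 3 stood alone at the top, FOXO3 KO 3 was second, and the groups overlapped. Cma1 and Mcpt4 encode chymases of connective tissue mast cells. Cma1 was at 70.4, 42.5 and 206 CPM in WT and at 68.4, 37.7 and 90.2 CPM in FOXO3 KO. Mcpt4 was at 33.0, 17.7 and 165 CPM in WT and at 30.2, 6.38 and 43.9 CPM in FOXO3 KO. Both followed Cpa3 in which library was highest and which was lowest, but Mcpt4 ranged more widely, 25.8-fold from FOXO3 KO 2 to WT 3, against 5.48-fold for Cma1.

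The tryptase genes Tpsb2 and Tpsab1 differed from each other. Tpsb2, the main tryptase of these cells, was at 47.5, 23.8 and 145 CPM in WT and at 31.4, 17.8 and 46.3 CPM in FOXO3 KO. Tpsab1 was at 3.24, 1.62 and 2.26 CPM in WT and at 3.68, 0.875 and 2.48 CPM in FOXO3 KO, from 24 to 117 counts. It was the only member that was not highest in WT 3, and its highest library was FOXO3 KO 1. In WT 3 it lay between WT 1 and WT 2, whereas in FOXO3 KO 2 it was lowest, as for most members. C57BL/6 mice are known to carry a splice-site change in Tpsab1 that prevents a functional tryptase.

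The alpha chain of the high-affinity IgE receptor, Fcer1a, was at 4.04, 2.79 and 12 CPM in WT and at 3.65, 1.53 and 5.56 CPM in FOXO3 KO. Its beta chain, Ms4a2, was at 3.21, 1.76 and 7.83 CPM in WT and at 2.87, 1.17 and 4.04 CPM in FOXO3 KO. Kit, the receptor for stem cell factor, was at 10.6, 4.90 and 29.9 CPM in WT and at 9.81, 6.23 and 15.4 CPM in FOXO3 KO. All 3 receptor genes had WT 3 highest and FOXO3 KO 3 second, and their groups overlapped. Gata2 showed the same pair at the top, with 3.04, 2.22 and 9.98 CPM in WT and 3.79, 1.75 and 3.95 CPM in FOXO3 KO.

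Hdc, which encodes the enzyme that makes histamine from histidine, had an order of its own. It was at 4.59, 2.54 and 42.8 CPM in WT and at 8.78, 5.87 and 8.20 CPM in FOXO3 KO. The 3 FOXO3 KO libraries lay close together, above WT 1 and WT 2 and far below WT 3. Hdc is also transcribed by basophils, neutrophils and activated macrophages, so it marks mast cells less strictly than the proteases do.

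**Figure D1:**
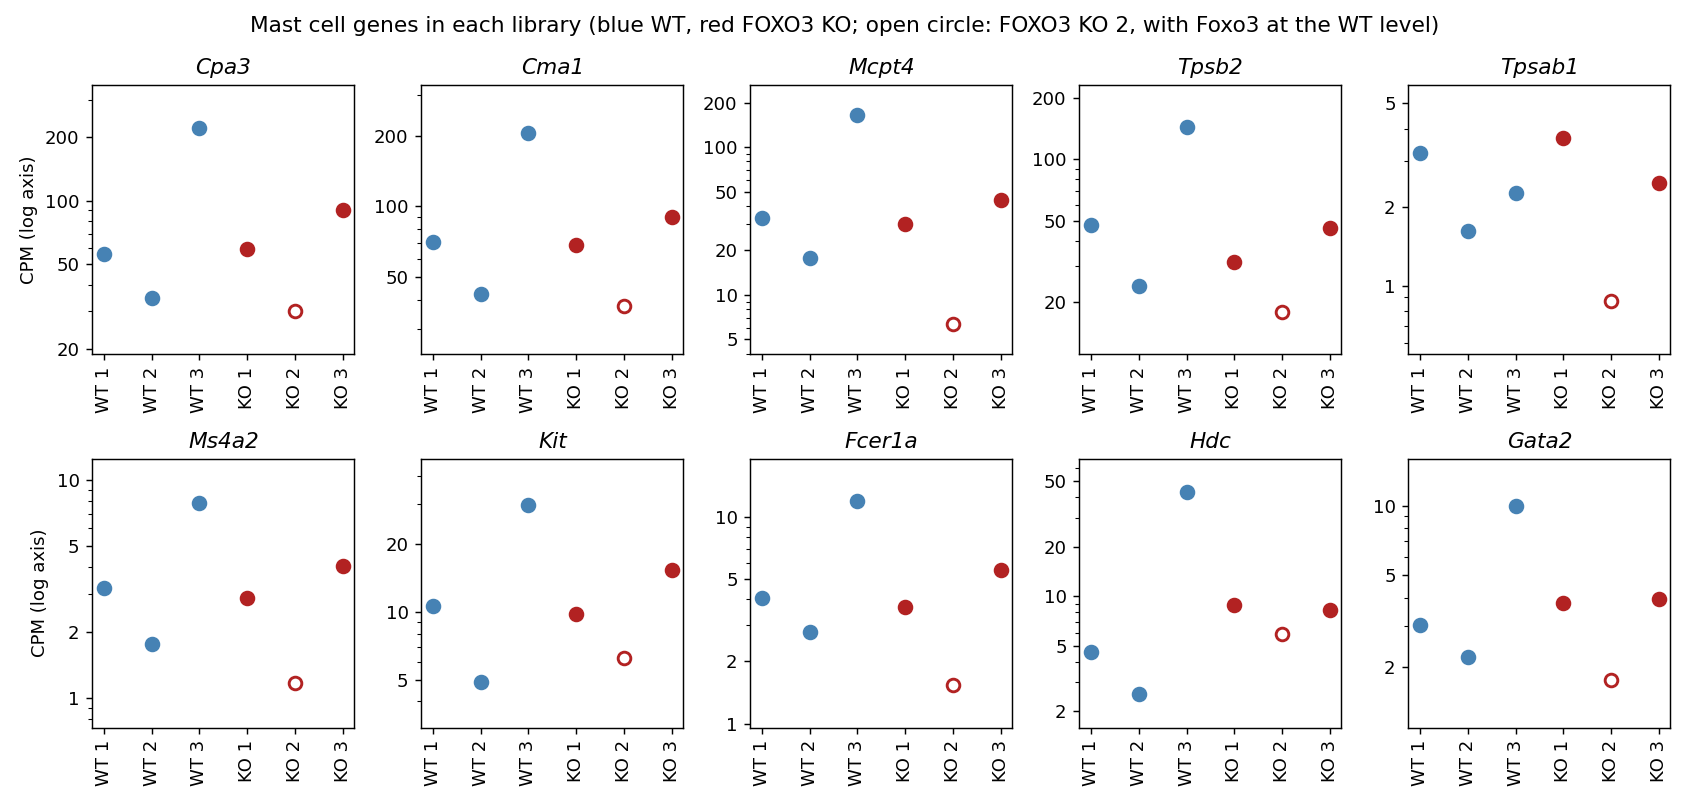
Expression of the 10 mast cell genes in CPM on a log axis, with 1 point per library, WT in blue and FOXO3 KO in red, and the library labelled FOXO3 KO 2 as an open circle. WT 3 is the highest point for 9 genes, such as 220 CPM for Cpa3, and Tpsab1 is the exception, at 2.26 CPM in WT 3.

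The order of libraries was largely shared. WT 3 was the highest of the 6 libraries for 9 of 10 members, and for 37.1% of all genes tested. It was over 2-fold above every other library for 7 members (Cpa3, Cma1, Mcpt4, Tpsb2, Fcer1a, Hdc and Gata2), and for 7.39% of all genes. The library labelled FOXO3 KO 2 was lowest for 8 members, all but Kit and Hdc, and for 8.45% of all genes. FOXO3 KO 3 was second for 7 members, which by itself puts both Xist libraries above the other 4 for the same 7. The share of all genes with this order was not counted. Summed over the members, expression was 236, 135 and 841 CPM in WT 1, 2 and 3, against 222, 109 and 311 CPM in FOXO3 KO 1, 2 and 3. The sum spanned a wide range within each genotype. In bulk RNA, fewer mast cells and less mast cell RNA per cell cannot be told apart.

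**Figure D2:**
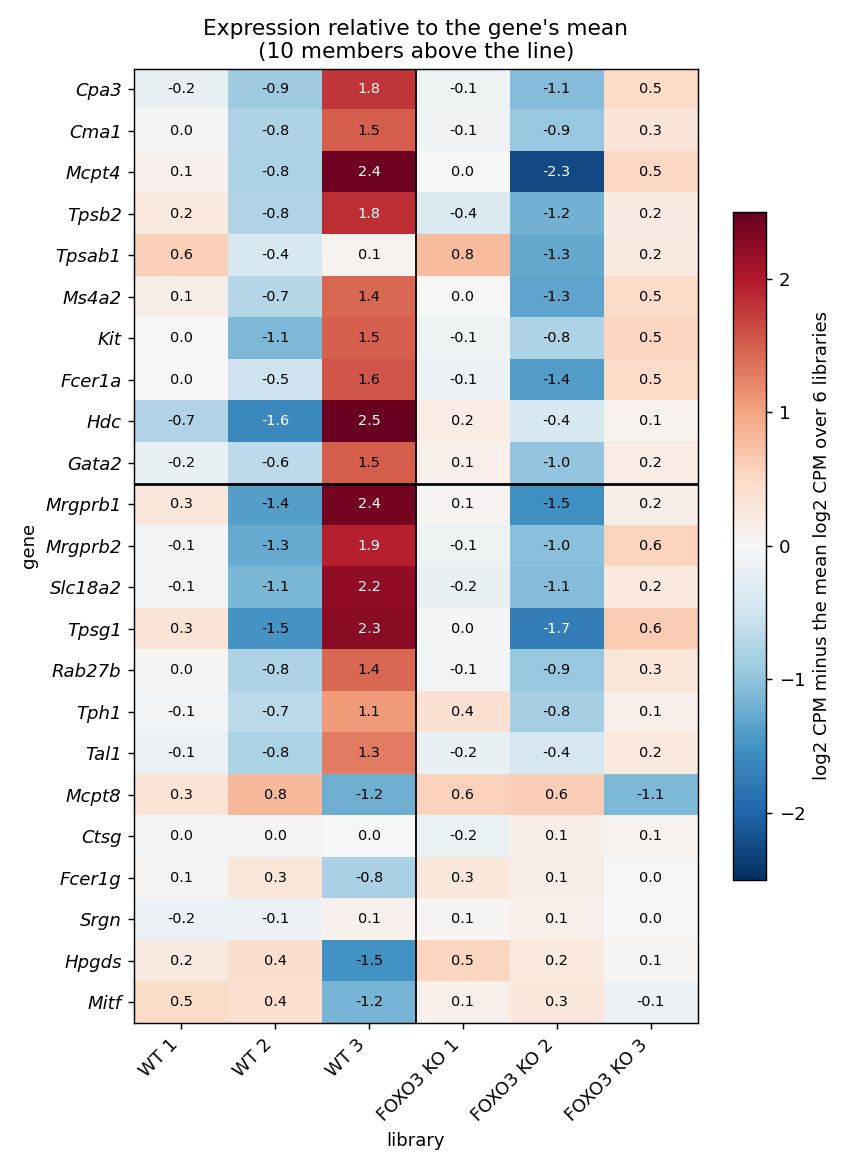
Log2 CPM of each gene minus its mean over the 6 libraries, with the 10 members above the black line and 13 other listed genes below it, and WT to the left of the vertical line. Cpa3 runs from 30.3 CPM in FOXO3 KO 2 to 220 CPM in WT 3, and Mrgprb1 shares its pattern, whereas Fcer1g, Hpgds and Mitf are lowest in WT 3.

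The question of the study was what loss of FOXO3 changes in these cells. For the mast cell genes, the comparison of 3 WT with 3 FOXO3 KO libraries found no difference past the threshold. The targeted gene Foxo3 did not pass it either. Its log2 fold change was -1.40 (standard error 1.22), with an adjusted p of 0.859 in edgeR. The FOXO3 KO group included the library labelled FOXO3 KO 2, with Foxo3 at 104 CPM. With edgeR's quasi-likelihood test, 0 of 10 members and 0% of 15608 genes had an adjusted p under 0.05 with a fold change over 1.5, and 0 of 10 members and 5.68% of genes (887) had an unadjusted p under 0.05. DESeq2 called 0 members and 0.964% of the 17318 genes it gave an adjusted p. No member had groups that did not overlap in CPM, which 12.4% of all genes had in either direction.

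All 10 members had a log2 fold change below 0, as had 51.2% of all genes, with a median of -0.75 for the members against -0.01 for all genes tested. Since the members share their order of libraries, these are not 10 separate observations. The value furthest from 0 was that of Mcpt4, at 71.9 ± 80.9 CPM (SD, n = 3) in WT against 26.8 ± 19.0 CPM (SD, n = 3) for FOXO3 KO. On the log2 scale this was -1.42 with a standard error of 1.0 and an adjusted p of 0.844 from edgeR. The smallest p among the members was that of Tpsb2, at 72.0 ± 64.1 CPM (SD, n = 3) in WT against 31.8 ± 14.3 CPM (SD, n = 3) for FOXO3 KO. Its log2 difference of -1.18 had a standard error of 0.70 and an edgeR p of 0.139, or 0.843 after adjustment. For Cpa3 the means were 104 ± 102 CPM (SD, n = 3) and 60.0 ± 30.3 CPM (SD, n = 3), a log2 difference of -0.79 with a standard error of 0.75 and an adjusted p of 0.863 in edgeR. In WT the standard deviation was about as large as the mean for these proteases. The log2 fold changes of the other members lay between -1.13 for Hdc (standard error 1.02) and -0.02 for Tpsab1 (standard error 0.55).

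The sign of these changes rested on WT 3. Without it, 2 of 10 members (Tpsb2 and Tpsab1) had a log2 fold change below 0, against 49.3% of all genes, and the members' median was 0.17. Cpa3 then had a log2 fold change of 0.41 (standard error 0.45) and Kit of 0.45 (standard error 0.46). Without the library labelled FOXO3 KO 2, 9 of 10 members, all but Tpsab1, were below 0, against 52.4% of all genes, with a median of -0.43. With both of these libraries left out, all 10 members were above 0 and the median was 0.52. No member passed an adjusted p of 0.05 in any of these edgeR fits. Of all genes, 0 were called without WT 3, 0 without FOXO3 KO 2 and 4 with both left out.

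Hdc moved most between these fits. Its log2 fold change was -1.13 over all 6 libraries and 1.10 (standard error 0.32) without WT 3, where its p was 0.0128 in edgeR's test and its adjusted p 0.513. It was the only one of 10 members with an unadjusted p under 0.05 in that fit, which 8.41% of all genes had. It was likewise the only member with every FOXO3 KO library above WT 1 and WT 2, as 13.2% of all genes had. Both counts rest on the same values, and 1 of 10 members is near either share. DESeq2 without WT 3 gave Hdc a log2 fold change of 1.08 with an adjusted p of 0.0738. The 10 neutrophil markers summed to 39.0, 55.3 and 9.98 CPM in WT and to 306, 53.7 and 221 CPM in FOXO3 KO, and S100a8, S100a9 and Cxcr2 made up most of the sums of FOXO3 KO 1 and 3. The markers did not move as 1 group. Retnlg was at 17.5, 21.2 and 3.46 CPM in WT and at 21.7, 16.9 and 18.4 CPM in FOXO3 KO, and Mmp8 was likewise lowest in WT 3, at 3.07 CPM. Of the 10 markers, 5 had 0 counts in some library, and the defining gene Ly6g had 4 counts or fewer in each. The part of such cells in the Hdc values was not tested.

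**Figure D3:**
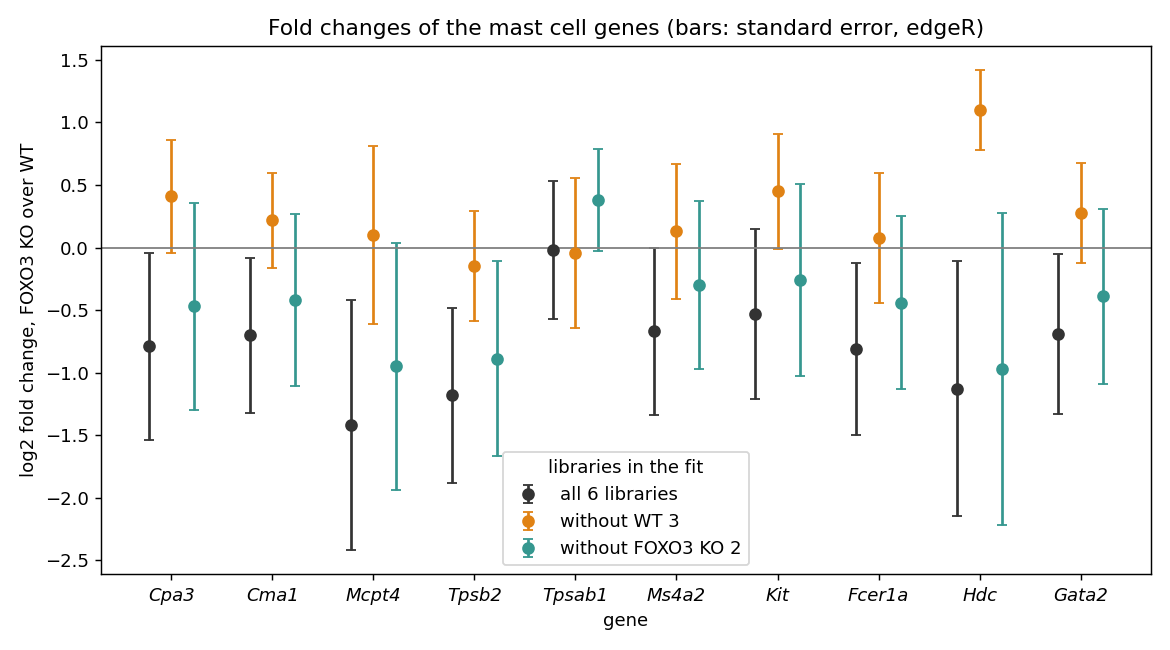
Log2 fold change of FOXO3 KO over WT for each member in edgeR, with its standard error as bars, over all 6 libraries in black, without WT 3 in orange and without the library labelled FOXO3 KO 2 in green. All black points lie below 0, and without WT 3 only Tpsb2 (-0.15) and Tpsab1 (-0.04) do.

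The split by Xist was also looked at within each kind of library, where there was no replicate for the pair with Xist. Between WT 3 and FOXO3 KO 3, the log2 ratio of FOXO3 KO to WT was -1.28 for Cpa3, -1.64 for Tpsb2 and -2.38 for Hdc, and 9 of 10 members were lower in FOXO3 KO 3. The same 9 were highest in WT 3, so this count restates that order. Between the means of WT 1 and 2 and of FOXO3 KO 1 and 2, the log2 ratio was -0.03 for Cpa3, -0.54 for Tpsb2 and 1.04 for Hdc, and 7 of 10 members were lower in FOXO3 KO. For Cpa3 these means were 45.4 ± 15.0 CPM (SD, n = 2) and 44.6 ± 20.3 CPM (SD, n = 2). With the split as a covariate in edgeR, the members' median log2 fold change was -0.45. In that fit 0 of 10 members had an unadjusted p under 0.05, against 1606 of 15608 genes. The means of Cpa3 in libraries without Xist thus differed by less than the spread between them. Without the library labelled FOXO3 KO 2, a choice made after the data were seen, FOXO3 KO 1 alone was below the mean of WT 1 and 2 for 1 of 10 members (Tpsb2), with a log2 ratio of 0.38 for Cpa3.

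A ratio within a library of 2 genes that only the same cells express does not depend on how many such cells it holds. Whether the members, such as Kit and Gata2, meet this condition in these libraries was not tested. Ratios to Cpa3 were taken from counts, with exact 95% intervals (Clopper-Pearson on the share of the 2 counts) that cover counting error only. The ratio of Cma1 to Cpa3 had the narrowest range of the 9, from 0.935 to 1.26, or 1.34-fold. The highest ratio was 1.48-fold the lowest for Gata2, 1.51-fold for Kit, 1.58-fold for Fcer1a and 1.61-fold for Ms4a2. Expression of these genes thus scaled nearly together over libraries whose Cpa3 differed 7.28-fold.

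The ratio of Tpsb2 to Cpa3 was 0.847, 0.682 and 0.656 in WT 1, 2 and 3 and 0.532, 0.586 and 0.510 in FOXO3 KO 1, 2 and 3. Every FOXO3 KO library was below every WT library, also WT 3, where the members summed highest. The gap was narrow, since the interval of WT 3 (0.634 to 0.680) overlapped that of FOXO3 KO 2 (0.523 to 0.656). Of all genes, 0.718% had a ratio to Cpa3 that was lower in every FOXO3 KO library than in every WT library, and Tpsb2 was the only one of 9 members. For a ratio higher in every FOXO3 KO library the share was 2.17%, with 0 of 9 members. Cpa3 was at 220 CPM in WT 3 against 30.3 to 90.8 CPM in FOXO3 KO. A gene that does not follow Cpa3 thus tends to have its lowest ratio in WT 3. Such a gene is rarely counted as lower in FOXO3 KO. The 0.718% is therefore no measure of how often genes that follow Cpa3, such as most members, separate in this direction. The denominators Cma1 and Kit were added after the ratio of Tpsb2 to Cpa3 was seen. With Cma1, Tpsb2 was again the only member below in every FOXO3 KO library, against 0.647% of genes. With Kit, 3 of 9 members were (Mcpt4, Tpsb2 and Fcer1a), against 1.65% of genes. Cma1 and Kit also peaked in WT 3, so these shares have the same limit. For Mcpt4 the gap to Kit was slight, at 3.12 in WT 1 and 3.08 in FOXO3 KO 1. For Fcer1a it was 0.382 and 0.372 in the same libraries. The intervals overlapped for both genes. The ratios share their denominator, so they are not separate observations. The ratio of Tpsb2 to Kit was 4.49, 4.85 and 4.83 in WT and 3.20, 2.85 and 3.0 in FOXO3 KO. The library labelled FOXO3 KO 2, with Foxo3 at the WT level, lay with the other FOXO3 KO libraries in all these ratios of Tpsb2. Without it, the same members had a ratio below that of every WT library, against 4.84% of genes with Cpa3, 4.49% with Cma1 and 6.04% with Kit. An exact two-sided permutation test of the ratio of Tpsb2 gave p = 0.10 with each denominator, the smallest that 3 libraries against 3 allow. Any ratio that separates the groups fully has this p, so it adds nothing to the order given above. Adjusted over the 9 ratios of a denominator, this was 0.675 with Cpa3, 0.90 with Cma1 and 0.30 with Kit. No p of this test can lie below 0.10 with these libraries, so no ratio could have passed the threshold on the adjusted p. The test therefore cannot decide whether any ratio differs between the groups.

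The other ratios to Cpa3 varied without separating the groups. The ratio of Mcpt4 to Cpa3 was 0.588, 0.509 and 0.748 in WT and 0.513, 0.211 and 0.483 in FOXO3 KO. Its low value in FOXO3 KO 2 (interval 0.178 to 0.248) lay apart from the other 5 libraries, whereas FOXO3 KO 1 and WT 2 nearly coincided. The ratio of Hdc to Cpa3 was 0.0819, 0.0729 and 0.194 in WT and 0.149, 0.194 and 0.0903 in FOXO3 KO. WT 3 and FOXO3 KO 2, the libraries with the most and the least Cpa3, shared its highest value. The ratio of Tpsab1 to Cpa3 was 0.0577, 0.0466 and 0.0102 in WT and 0.0624, 0.0289 and 0.0273 in FOXO3 KO, a 6.09-fold range and the widest of the 9. It was lowest in WT 3, with an interval of 0.00813 to 0.0127.

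**Figure D4:**
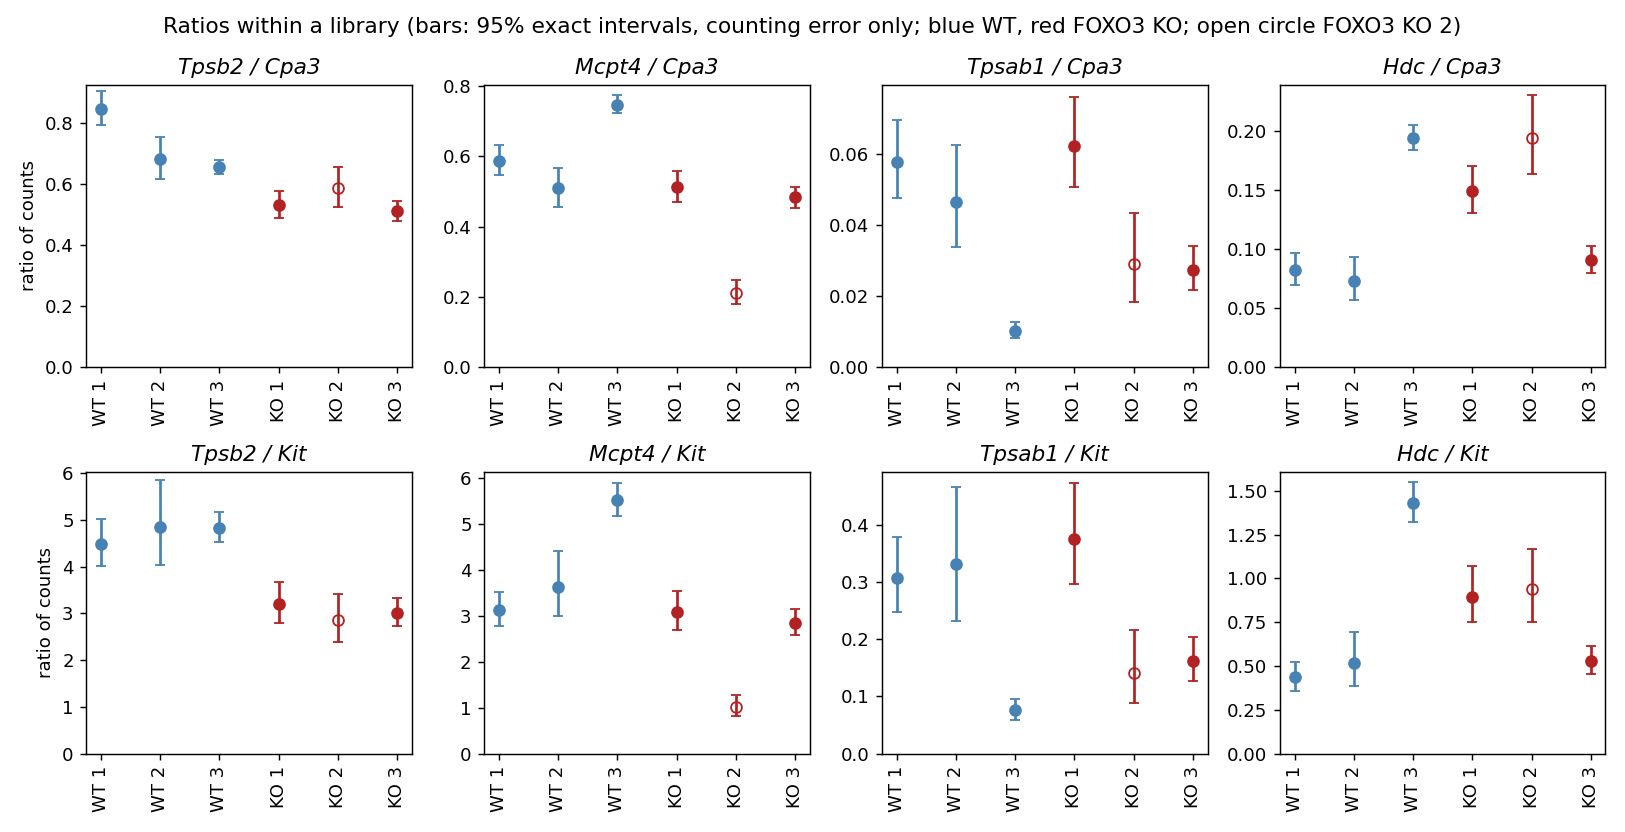
Ratios of the counts of Tpsb2, Mcpt4, Tpsab1 and Hdc to those of Cpa3 (top) and Kit (bottom) in each library, with exact 95% intervals for counting error as bars, WT in blue, FOXO3 KO in red and FOXO3 KO 2 as an open circle. For Tpsb2 every FOXO3 KO point lies below every WT point with either denominator, such as 2.85 to 3.20 against 4.49 to 4.85 with Kit.

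Other genes of mast cells were read from lists by role. Counts of an unadjusted p under 0.05 in these lists stand against 5.68% of all genes in edgeR's test. Among 9 other proteases of mast cells and basophils, 5 passed the filter, with 3 log2 fold changes above 0 and 2 below and a median of 0.01, and 0 had an unadjusted p under 0.05. Tpsg1, a membrane-bound tryptase, was at 1.38, 0.388 and 5.21 CPM in WT and at 1.06, 0.328 and 1.68 CPM in FOXO3 KO, in the same order as Mcpt4. Mcpt1, Mcpt2 and Mcpt9, proteases of mucosal or uterine mast cells, had 0 or 1 count in every library, and 0 counts allow up to 0.0830 to 0.109 CPM depending on the library. The proteases with the highest levels here are those known from connective tissue mast cells.

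The basophil protease Mcpt8 was at 0.332, 0.458 and 0.112 CPM in WT and at 0.389, 0.401 and 0.120 CPM in FOXO3 KO, from 4 to 13 counts. It was lowest in WT 3, as was the basophil marker Il4, at 0.362 CPM there, but Prss34 and Cd200r3 did not share this. Prss34, another basophil protease, was at 1.99, 0.811 and 4.82 CPM in WT and at 0.779, 0.802 and 1.62 CPM in FOXO3 KO, and Cd200r3 was likewise highest in WT 3, at 3.37 CPM. The 4 basophil markers summed to 6.06, 3.95 and 8.67 CPM in WT and to 3.47, 4.85 and 5.38 CPM in FOXO3 KO. Their sum peaked in WT 3 with that of the members, at a far lower level, but only 2 of the 4 markers (Prss34 and Cd200r3) were highest there. The part of basophils in the members' values was not tested.

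Of 9 other surface receptors, 7 passed the filter, with 1 log2 fold change above 0, 6 below, a median of -0.13 and 0 with a p under 0.05. Mrgprb1, a mast cell receptor of the Mas-related family, was at 8.47, 2.68 and 36.4 CPM in WT and at 7.26, 2.41 and 7.72 CPM in FOXO3 KO. Mrgprb2, the receptor through which basic peptides and drugs degranulate mouse mast cells, was at 2.6, 1.13 and 10.4 CPM in WT and at 2.48, 1.31 and 3.98 CPM in FOXO3 KO. Both followed the proteases from library to library. Csf2rb, the beta chain shared by cytokine receptors of many myeloid cells, reached 541, 611 and 283 CPM in WT and 504, 509 and 391 CPM in FOXO3 KO and ran the other way, lowest in WT 3.

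Of 10 granule matrix, amine and secretion genes, 5 were above 0 and 5 below (median -0.08), and 0 had a p under 0.05. Slc18a2, which loads amines into granules, was at 2.43, 1.16 and 11.9 CPM in WT and at 2.23, 1.20 and 3.02 CPM in FOXO3 KO. Rab27b, a small GTPase of granule release, was at 2.08, 1.20 and 5.55 CPM in WT and at 1.95, 1.06 and 2.51 CPM in FOXO3 KO. Tph1, which makes the precursor of serotonin, was at 7.19, 4.72 and 15.8 CPM in WT and at 9.81, 4.23 and 8.20 CPM in FOXO3 KO. All 3 genes were highest in WT 3, as were 5 of the 10 genes of this list, though Tph1 had FOXO3 KO 1 second. Ndst2, Vamp8, Cd63 and Stxbp2 were instead lowest in WT 3. Cd63, for example, was at 187 CPM there and at 400 to 705 CPM in the other libraries. Srgn, the core protein that holds the proteases in the granule, is also abundant in macrophages and was at 276, 278 and 331 CPM in WT and at 319, 335 and 311 CPM in FOXO3 KO.

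The lipid mediator enzymes had 5 log2 fold changes above 0 and 2 below among 7 genes (median 0.36), and 3 of 7 had an unadjusted p under 0.05 in edgeR's test, as had 5.68% of all genes, and 0 after adjustment. For Ltc4s, the leukotriene C synthase, the log2 difference was 0.48 (standard error 0.10) with an edgeR adjusted p of 0.714. For Pla2g4a, the phospholipase that frees arachidonic acid, it was 0.54 (standard error 0.10) with the same adjusted p, and for Ptgs2, the inducible cyclooxygenase, 1.30 (standard error 0.39), with an edgeR adjusted p of 0.731. The groups of these 3 genes did not overlap, as was the case for 12.4% of all genes. The 3 were picked by their p on the same values, so this is not a second observation. Ltc4s was at 89.5, 101 and 92.1 CPM in WT and at 129, 125 and 140 CPM in FOXO3 KO. None of these 3 had the members' order, and macrophages make the same enzymes. Hpgds, the prostaglandin D synthase, was at 206, 240 and 62.1 CPM in WT and at 258, 210 and 183 CPM in FOXO3 KO, lowest in WT 3.

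Of the 11 genes of the IgE receptor signalling chain, 5 were above 0 and 6 below (median -0.03). In edgeR's test 1 of 11 (Fyn) had an unadjusted p under 0.05, as had 5.68% of all genes. Its log2 fold change was 0.28, with an adjusted p of 0.788 in edgeR. Fyn (chr10:39368855-39565381) is on the same chromosome as the targeted Foxo3 (chr10:42181841-42276755), and the part of this position was not tested. Fcer1g, the gamma chain that completes the IgE receptor and also serves Fc receptors of macrophages, was at 393, 462 and 213 CPM in WT and at 458, 415 and 377 CPM in FOXO3 KO. It was lowest in WT 3, where Fcer1a and Ms4a2 were highest. Of 8 other transcription factors, 6 were above 0 and 2 below (median 0.03), and 0 had a p under 0.05. Tal1, a partner of GATA2, followed the members with 2.66, 1.69 and 7.17 CPM in WT and 2.58, 2.19 and 3.47 CPM in FOXO3 KO, while Mitf was at 131, 127 and 42.6 CPM in WT and at 104, 114 and 86.0 CPM in FOXO3 KO.

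Growth factors and cytokines that act on mast cells were at 5.25 CPM or less in every library, except Kitl. Of the 7 genes, 4 passed the filter, with 3 log2 fold changes above 0 and 1 below (median 0.28). In edgeR's test 1 of 4 (Il33) had an unadjusted p under 0.05, as had 5.68% of all genes. Il3 and Il9 had 0 counts in all 6 libraries. Kitl, which encodes stem cell factor, was at 19.4, 29.2 and 8.14 CPM in WT and at 21.2, 24.6 and 20.3 CPM in FOXO3 KO, lowest in the library where its receptor Kit was highest. Il33 was at 0.415, 0.635 and 0.279 CPM in WT and at 0.920, 5.25 and 1.88 CPM in FOXO3 KO, with a log2 difference of 2.6 (standard error 0.72) and an edgeR adjusted p of 0.714. Il33 was highest in the library labelled FOXO3 KO 2, as was the sum of 10 mesothelial cell and fibroblast markers, at 59.5, 40.9 and 32.8 CPM in WT and 69.3, 373 and 116 CPM in FOXO3 KO, where 1 marker (Msln) had 0 counts in some libraries. The part of such cells in the Il33 values was not tested. Without that library its log2 difference was 1.67 (standard error 0.52) and its adjusted p in edgeR 0.994.

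The lists were also counted without the library labelled FOXO3 KO 2, a choice made after the data were seen. The same 5 genes (Ltc4s, Pla2g4a, Ptgs2, Fyn and Il33) had an unadjusted p under 0.05, against 4.30% of all genes, and of the members 0 of 10 had. No gene of the lists had an adjusted p under 0.05 in that edgeR fit, in which 0 of all 16217 genes were called. Foxo3 itself had an adjusted p of 0.105 in it, so this absence is not particular to the lists. The log2 differences were 0.51 for Ltc4s, 0.57 for Pla2g4a, 1.39 for Ptgs2 and 0.34 for Fyn. Among the other proteases, all 5 tested were then below 0, with a median of -0.70, in place of 2 of 5. Of all genes, 52.4% were below 0 in that fit. Mcpt8 (4 to 13 counts) and Ctsg (10 to 14 counts) are among these 5. So is Gzmb, which was highest in the library left out, at 3.94 CPM. Counts of the lists without WT 3 were also added after the data were seen. In that fit 5 of 7 surface receptors were above 0 in place of 1, and 49.3% of all genes were below 0. Of the lipid mediator enzymes, 5 of 7 had an unadjusted p under 0.05 in edgeR, against 8.41% of all genes. The added enzymes were Ptgs1 and Alox5, both highest in the library left out, at 183 and 123 CPM. Srgn, Rab27a, Mitf, Fyn and Il33 also had an unadjusted p under 0.05 in that edgeR fit.

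Markers of B and T cells shared the peak in WT 3. The 8 B cell markers were all highest in WT 3, and their sum was 842, 456 and 3642 CPM in WT and 205, 397 and 793 CPM in FOXO3 KO. Of 8 T cell markers, 7 were highest in WT 3, and the sum was 45.5, 54.5 and 138 CPM in WT and 48.8, 47.3 and 64.3 CPM in FOXO3 KO. In both lists no marker was at 0 in any library. The B cell sum separated FOXO3 KO 1 (205 CPM) from WT 1 (842 CPM), whose members' sums were close, at 222 and 236 CPM. The sum of the 12 macrophage markers was lowest in WT 3 and highest in WT 2, while 4 of the 12 were highest in WT 3. The 5 eosinophil markers summed to 65.4 to 92.6 CPM in WT and 37.4 to 94.8 CPM in FOXO3 KO, with the granule genes Epx and Prg2 at 5 counts or fewer. These markers did not move as 1 group. In WT 3, Il5ra was at its highest, 80.0 CPM, and made up most of the sum, while Siglecf (3.71 CPM) and Ccr3 (8.89 CPM) were at their lowest. The part of these other cells in the members' differences was not tested.

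**Figure D5:**
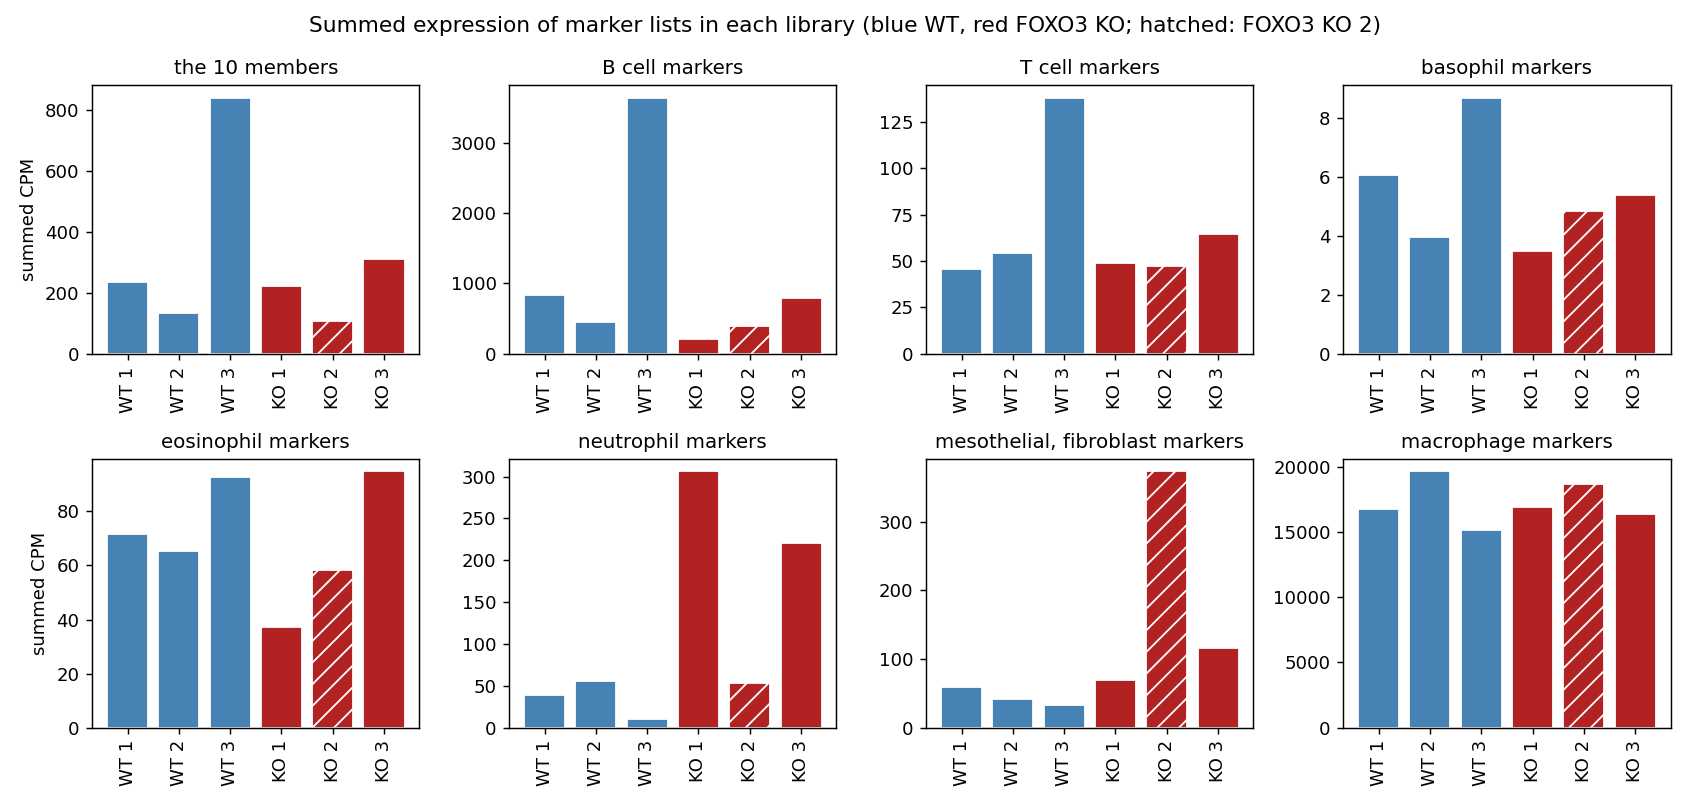
Summed CPM of the 10 mast cell genes and of 7 marker lists in each library as bars from 0, with WT in blue, FOXO3 KO in red and the library labelled FOXO3 KO 2 hatched; each panel has its own axis. The members (841 CPM) and the B cell markers (3642 CPM) share their peak in WT 3, and the neutrophil markers peak in FOXO3 KO 1 (306 CPM).

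The genes outside the lists whose log2 CPM was most like the members' mean over the 6 libraries were Gm5460, Ednra, Ankra2, Zfp973, Rgs13, Elac2, Slc35e2 and Sp2, each with a Pearson r of 0.99 or 1.0. This measure describes 6 libraries that differ in many genes at once, and 100 of the 15608 genes (0.641%) had an r above 0.95. Without WT 3, 82 genes did. Ednra, an endothelin receptor, was at 1.19, 0.776 and 3.37 CPM in WT and at 1.13, 0.474 and 1.62 CPM in FOXO3 KO. Rgs13, a regulator of G protein signalling, was at 0.526, 0.247 and 1.87 CPM in WT and at 0.637, 0.255 and 0.688 CPM in FOXO3 KO. The others changed far less, such as Ankra2, at 26.3 to 33.3 CPM. Among the members, r with the mean was between 0.96 and 0.99 for 8, 0.86 for Hdc and 0.57 for Tpsab1, which are part of that mean, and without WT 3 it was 0.57 for Hdc and 0.87 for Tpsab1.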

How the data were processed

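RNA of peritoneal cells from mice of 2 groups was sequenced in 6 libraries as paired reads of 76 bp. The authors deposited estimated counts per gene symbol, without normalization. The submitters' processing notes name STAR 2.6.1d, kallisto 0.46.0, DESeq2 and mm10, with no role or order. RNA integrity numbers above 7 were required. Deposited values were rounded before use, 81.4% of them by 0.01 or less. Estimated counts share reads between similar transcripts by a model, so members that share sequence with other genes are less certain.

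The quasi-likelihood test of edgeR 4.0.16 (R 4.3.3) followed filterByExpr and TMM (factors 0.936 to 1.1, common dispersion 0.103), with Benjamini-Hochberg adjustment over the 15608 genes tested. Calls needed an adjusted p under 0.05 and a fold change over 1.5. To obtain a standard error, the absolute log2 fold change was divided by the root of its F statistic. CPM refer to the TMM-scaled library size, and log2 CPM used a prior count of 2. The test was checked on simulated counts. DESeq2 1.42.0, limma-voom (limma 3.58.1) and other filters, scalings and sets of libraries were alternatives. Ratios, sequences and figures used Python 3.11.15, scipy 1.17.1 and matplotlib 3.10.9. Any 2 libraries differed beyond sampling noise, the lowest chi-square over its degrees of freedom being 22.0. The labels number the libraries and do not say whether each came from a single mouse, so p-values measure the spread between these libraries.

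The members, the lists by role and the marker lists were chosen with earlier results of these data known. Named were all members, Foxo3, listed genes with high or called values or that describe a list, and the 8 genes outside the lists most like the members' mean. Some listed genes were named after their values were seen, as were Xist and the genes that share sequence with a member.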

Additional observations from a re-analysis of the deposited data

How the results depend on the processing

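No member was called in any of 19 alternatives. In 14 of the 19, 0 of all genes tested were called, so these 14 show nothing particular to the members. Of 190 member values (10 members under 19 alternatives), 160 kept their direction and 30 reversed, all but 4 of them in fits without WT 3; those 4 were all Tpsab1. The members' median log2 fold change was -0.75, between -1.13 and 0.17 with each library left out in turn, 0.52 without WT 3 and FOXO3 KO 2 together, and 0.16 in DESeq2 without WT 3 (the DESeq2 fits without a library were chosen after the data were seen). With each library left out in turn, Cpa3 lay between -1.22 and 0.41, Cma1 -1.08 and 0.22, Mcpt4 -1.97 and 0.10, Tpsab1 -0.50 and 0.38, Ms4a2 -1.08 and 0.13, Kit -0.94 and 0.45, Fcer1a -1.28 and 0.08, Hdc -1.63 and 1.10 and Gata2 -1.04 and 0.28, while Tpsb2 stayed below 0 (-1.59 to -0.15). Without WT 3 and FOXO3 KO 2 together the values were 0.72 for Cpa3, 0.49 for Cma1, 0.54 for Mcpt4, 0.12 for Tpsb2, 0.33 for Tpsab1, 0.47 for Ms4a2, 0.70 for Kit, 0.43 for Fcer1a, 1.24 for Hdc and 0.55 for Gata2. DESeq2 without WT 3 gave 0.39 for Cpa3, 0.20 for Cma1, 0.07 for Mcpt4, 0.11 for Ms4a2, 0.43 for Kit, 0.06 for Fcer1a, 1.08 for Hdc and 0.26 for Gata2. Tpsab1 was 0.00 with no filter and 0.38 in DESeq2 without FOXO3 KO 2. Foxo3 was -1.40, -4.46 to -0.87 with a library left out, -4.64 without WT 3 and FOXO3 KO 2 together and -4.46 in DESeq2 without FOXO3 KO 2. The log2 ratio of Tpsb2 to Cpa3 between the groups stayed between -0.49 and -0.30 (all libraries -0.42) and was -0.65 with Kit as the denominator. Among all genes, 0 were called in the quasi-likelihood test, 109 in edgeR's likelihood ratio test, 167 in DESeq2, 4 without WT 3 and FOXO3 KO 2 together, 166 in DESeq2 without WT 3 and 109 in DESeq2 without FOXO3 KO 2; the cause was not tested. Correlations of same-numbered libraries were 0.26, -0.07 and 0.52, and that of WT 2 with FOXO3 KO 1 was 0.55. The members' sum, however, peaked in library 3 and was lowest in library 2 of each group. Both libraries numbered 3 were also those with Xist. The labels do not say whether equal numbers mark pairs, and pairing was not tested. With the replicate block, 0 genes were called and the members' median was -0.47. In that edgeR fit 2 members (Mcpt4 and Tpsb2) had an unadjusted p under 0.05, as had 1033 of 15608 genes. Every member had a lower standard error there than in the main fit, such as 0.28 in place of 0.75 for Cpa3. Depth limits Tpsab1 (24 to 117 counts) and Ms4a2 (32 to 281 counts) most.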
